A study of Mus musculus with 4 samples.

Results

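The regions described here are clusters of small RNA alignments that were listed in the cells of both 4T1 and 4TO7 and in neither of their extracellular vesicle (EV) libraries. They were chosen from the authors' cluster tables: a 4T1 cell cluster was taken when it overlapped a 4TO7 cell cluster by at least 1 nt on either strand and overlapped no cluster of 4T1 EVs or 4TO7 EVs. Of 1877 clusters listed in 4T1 cells, 870 met this rule. Another 208 clusters were shared by the lines and also listed in an EV library, and 799 overlapped no 4TO7 cell cluster. The 870 regions overlapped 876 clusters of 4TO7 cells, and the whole series lists 4197 clusters in 4 libraries. Since presence in the tables chose the regions, their presence in cells and absence from EVs is no finding, and the values below are a description.

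The 4 groups were 4T1 cells, 4TO7 cells and the EVs that each line released, with 1 library per group. Both lines stem from mouse mammary carcinoma, and EVs are small vesicles shed by cells, with RNA among their cargo. Cells were grown in serum cleared of EVs, ribosomal RNA was depleted, and RNA of miRNA size was cut from a gel before sequencing. All 4 libraries thus share the depletion and the size cut, and each line is a single established line. There is no replicate error, so no test between the lines was possible and every interval covers counting error only. Reads aligned to the genome numbered 13505699 for 4T1 cells and 11274041 for 4TO7 cells. The EV libraries were smaller, with 7625978 for 4T1 EVs and 5171514 for 4TO7 EVs. Reads of 10 to 17 nt were 32.4% of the 4T1 cell library and 22.3% of the 4TO7 cell library, and their part in the results was not tested. Among miRNAs that mark epithelial cells (the miR-200 family and miR-205), 5 of 6 had reads in 4T1 cells, 3922 in sum, and 2 of 6 had reads in 4TO7 cells, 42 in sum. The part of this difference in the results was not tested. Of 4 leukocyte miRNAs, 4T1 cells had 1 read in all and 4TO7 cells had 0. Of 3 muscle miRNAs, 1 (miR-206-3p) had 154 reads in 4T1 cells and the others 0, and all had 0 in 4TO7 cells. The liver miRNA had 1 read in each line, and erythroid and neuronal miRNAs had 0 in each.

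Most small RNA reads outside miRNAs come from longer structural RNAs, such as ribosomal RNA, small nuclear RNA and transfer RNA, whose fragments pile up at fixed places along the parent molecule. Such RNAs are encoded by many near-identical gene copies, so a short read often matches several places in the genome. 5S ribosomal RNA, a component of the large ribosomal subunit, is a standard case: RNA polymerase III transcribes it from genes repeated head to tail.

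The genome alignment reported up to 6 positions per read with 1 mismatch, per the authors' alignment logs. A read of a repeated RNA was therefore counted in several clusters, and 1 aligned read gave on average 4.44 alignments in 4T1 cells and 4.17 in 4TO7 cells. Totals of copies of 1 RNA are not independent, and their shares cannot be added. Coordinates of regions are on mm9 throughout. A level below is the number of alignments in a cluster, or that number as a percentage of genome-aligned reads.

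The authors' label column was empty for all 870 regions, while 7 other clusters of 4T1 cells carried a label. A run of 51 regions could nevertheless be matched to genes by its spacing. These 51 clusters lay head to tail on the minus strand of chromosome 8 (mm9, 126062682 to 126147608), 1665 to 1727 nt apart with a median of 1697.5 nt. Among 10227 annotated mouse genes under 400 nt (GENCODE M21, GRCm38), 1 run of 51 genes had this spacing, and all 51 are annotated as ribosomal RNA genes, most under names of 5S ribosomal RNA such as Rn5s and n-R5s102. Of the 50 spacings, 48 were equal and the largest difference was 1 nt. Only distances were compared and no coordinate was carried between the builds, so the place of a cluster within its gene is not given here.

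The cluster matched to Rn5s (chr8:126122054-126122129) had 14696 alignments in 4T1 cells against 13915 in 4TO7 cells. Most copies had nearly this level: 42 of the 51 had 13254 to 14825 alignments in 4T1 cells (median 14546.5) and 13788 to 14255 in 4TO7 cells (median 13996.5). The other 9 copies had 4630 to 12446 alignments in 4T1 cells (median 4758) and 3108 to 7026 in 4TO7 cells (median 3175). The copies were parted by their own totals, at 10000 alignments in 4TO7 cells. That the 2 ranges did not overlap in either line is thus a description.

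All 7 copies that were 25 nt wide in 4T1 cells were among the 9 low ones, with 4630 to 4894 alignments in 4T1 cells against 3108 to 3209 in 4TO7 cells. An example is n-R5s102 (chr8:126066074-126066099), with 4822 alignments in 4T1 cells against 3184 in 4TO7 cells. The remaining low copies, both 50 nt wide in 4T1 cells, were n-R5s129, with 7390 alignments in 4T1 cells against 3153 in 4TO7 cells, and n-R5s115, with 12446 in 4T1 cells against 7026 in 4TO7 cells. The same copies were thus low in both lines. Since no more than 6 positions were reported per read, a read matching more copies was counted at only some of them. The part of this in which copies were low was not tested.

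The 42 higher copies were parted here by their own log2 ratio of 4T1 cells over 4TO7 cells per genome-aligned read. It was -0.33 to -0.30 in 8 copies and -0.22 to -0.17 in the other 34. The 4T1 totals of the 2 sets did not overlap and the 4TO7 totals did. This is a description, since the ratio made the sets. In 8 copies the totals were 13254 to 13597 in 4T1 cells and 13803 to 14108 in 4TO7 cells. In the other 34 copies they were 14395 to 14825 in 4T1 cells and 13788 to 14255 in 4TO7 cells. All 8 were 50 nt wide, whereas 16 of the 34 were 50 nt and 18 were 75 nt wide.

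**Figure D1:**
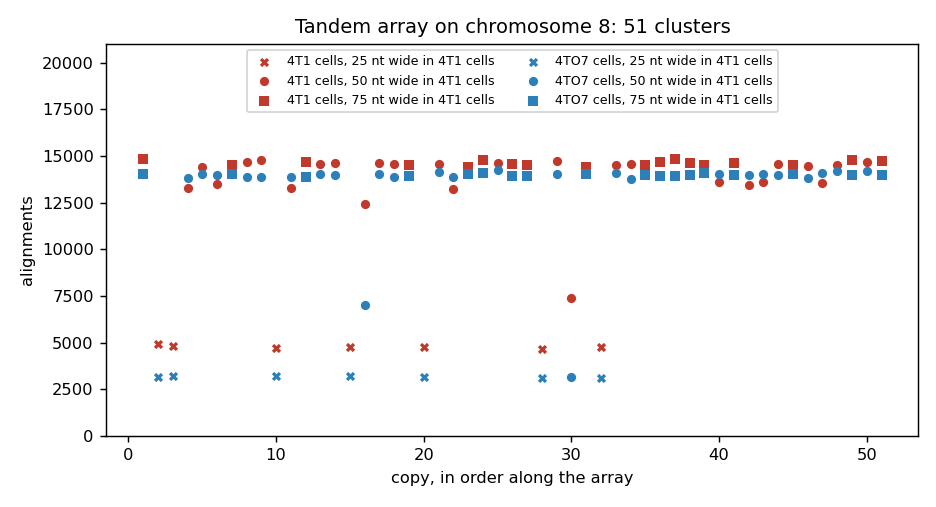
Alignments (vertical axis, from 0) of the 51 clusters of the tandem 5S array in 4T1 cells (red) and 4TO7 cells (blue), by order along the array (horizontal axis); crosses, circles and squares mark copies 25, 50 and 75 nt wide in 4T1 cells. The 42 higher copies lie between 13254 and 14825 in 4T1 cells and between 13788 and 14255 in 4TO7 cells, and the same 9 copies lie below in both lines.

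Per genome-aligned read, the 51 copies had a median log2 ratio of -0.20 for 4T1 cells over 4TO7 cells, with a range of -0.33 to 0.97, and none passed the limit for a call given below. Since a read was reported at no more than 6 positions, dividing the summed totals by 6 gives a lower bound: the array held at least 0.811% of the aligned reads of 4T1 cells and 0.916% of those of 4TO7 cells. The median copy stood 6.30 times above the lowest share listed in 4T1 EVs and 4.91 times above the lowest share listed in 4TO7 EVs. That no EV cluster overlapped any of the 51 follows from the rule.

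Across all 870 regions, the alignments per region in 4T1 cells ran from 1319 to 245791 with a median of 5244, and in 4TO7 cells from 1304 to 754931 with a median of 4227. The shared clusters that an EV library also listed had a median of 20197 in 4T1 cells, and the clusters not shared with 4TO7 cells a median of 1842. The regions were thus of intermediate size, which is a description, as the rule selects on being listed above the table's minimum. Their totals summed to 18.7% of all reported alignments in 4T1 cells, and those of the overlapping clusters to 24.7% in 4TO7 cells. These 2 shares are not like for like, since only the 4T1 cluster was screened against EV clusters. Some of the 4TO7 clusters overlap EV clusters themselves. Examples are the 4TO7 totals of 754931 on chromosome 9 and 670247 on chromosome 12, whose merged loci overlapped 2 and 1 EV clusters. How much of the 24.7% such clusters made up was not tested. The 10 largest held 17.9% of the sum in 4T1 cells.

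Clusters were listed in steps of 25 nt, and 675 of the 870 regions (77.6%) were 25 nt wide, 125 were 50 nt, 49 were 75 nt and 21 were wider, up to 250 nt. Of the 208 shared clusters that EVs also listed, 50.5% were 25 nt wide, and the widest spanned 900 nt. Of the 799 clusters of 4T1 cells not shared with 4TO7 cells, 94.7% were 25 nt wide, so the 870 stood between these sets. In 862 regions at least 99% of the alignments in 4T1 cells lay on 1 strand, and in 788 all of them did. At least 99% lay on 1 strand in 207 of the 208 and in 775 of the 799 clusters too. The plus strand was the main one in 516 regions and the minus strand in 354, and 858 had the same main strand in both lines. Every chromosome listed held regions: 93 were on chromosome 8 (42 outside the 5S array), 52 on X, 1 on Y and 6 on the mitochondrial genome, and each other autosome held 29 to 55.

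The cluster borders were close to the same in both lines. Start and end were identical in 445 of the 870 regions (51.1%), and 847 overlapped a single 4TO7 cell cluster, 21 overlapped 2 and 2 overlapped 3. The smallest overlaps that still counted were 1 nt, at chr11:33655008-33655033 and chr6:145881444-145881469. Just outside the rule, chr11:108873191-108873216 lay 2 nt from a 4TO7 cell cluster and was not taken. On the EV side, chr6:122573613-122573638 touched an EV cluster without overlap and was taken, while chr17:39984132-39984157 overlapped one by 1 nt and was not.

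Not being listed in EVs is limited by the size of the EV libraries. The lowest total in each table was 1300 to 1305 alignments, which is 0.00963% of the aligned reads of 4T1 cells and 0.0116% of those of 4TO7 cells. In the smaller EV libraries it is 0.0170% for 4T1 EVs and 0.0252% for 4TO7 EVs. In 332 of the 870 regions the share in a line's cells was below the lowest share listed in that line's EVs in at least 1 line, so an equal share in EVs could not have been listed. In the other 538 regions it was above the lowest listed share in both lines. The margin was at least 2-fold in both lines for 301 regions, at least 10-fold for 62 and at least 50-fold for 10. The 4TO7 share here is that of the overlapping 4TO7 clusters, some of which overlap EV clusters themselves. Whether the tables list every cluster above their lowest total is not stated in the sources used here.

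**Figure D2:**
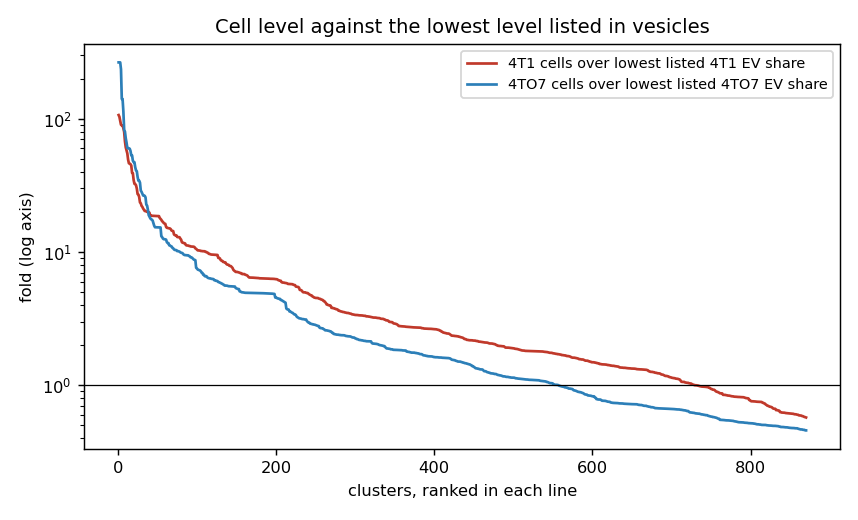
Share of genome-aligned reads in cells divided by the lowest share listed in EVs of the same line (vertical log axis) for the 870 regions, ranked within each line (horizontal axis); red is 4T1 and blue is 4TO7. The median is 2.28 in 4T1 and 1.49 in 4TO7, and values below the line at 1 could not have been listed at an equal EV share. The 4TO7 share is that of the overlapping 4TO7 clusters, some of which overlap EV clusters themselves.

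The EV libraries listed few clusters, 684 in 4T1 EVs and 465 in 4TO7 EVs, and most regions had none nearby. How far other places in the genome lie from them was not tested. Of the 10 largest regions, chr10:82417876-82418126, chr16:33002064-33002114 and chr11:108872960-108873035 lay 5, 20 and 104 nt from an EV cluster. The rest of the 10 lay at least 539478 nt from one. An EV cluster lay within 100 nt of 59 regions and within 1000 nt of 89, and 775 had none within 10000 nt. Another of the 870 regions lay within 1000 nt of 114. Grouping neighbours within 1000 nt on 1 strand gave 43 loci with 111 regions, with a median span of 236 nt and at most 5 regions in a locus.

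For each region the ratio of the lines is the 4T1 cell total per genome-aligned read over the summed total of the overlapping 4TO7 cell clusters per genome-aligned read, with an exact (Clopper-Pearson) 95% interval. Totals summed both strands, so alignments on the opposite strand in 1 line entered the ratio. A region was called higher in 4T1 cells when the whole interval lay above 2-fold and lower when it lay below a ratio of 0.5. The lines had similar levels in most regions: the median log2 ratio was 0.03, 452 regions lay above 0 and 418 below, and 704 (80.9%) were within 2-fold. Of the 870 regions, 99 were called higher in 4T1 cells (11.4%) and 59 lower (6.78%). Over all 1078 shared clusters, EV-listed ones included, the shares were 12.0% and 6.4%, so the counts of the 870 stood near this background. The direction rests on the denominator: per sense miRNA alignment every log2 ratio was lower by a shift of -1.50, and 5 of the 870 were called higher and 659 lower. The 208 shared clusters that EVs listed had a median log2 ratio of -0.01, with 30 called higher (14.4%) and 10 lower (4.81%).

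**Figure D3:**
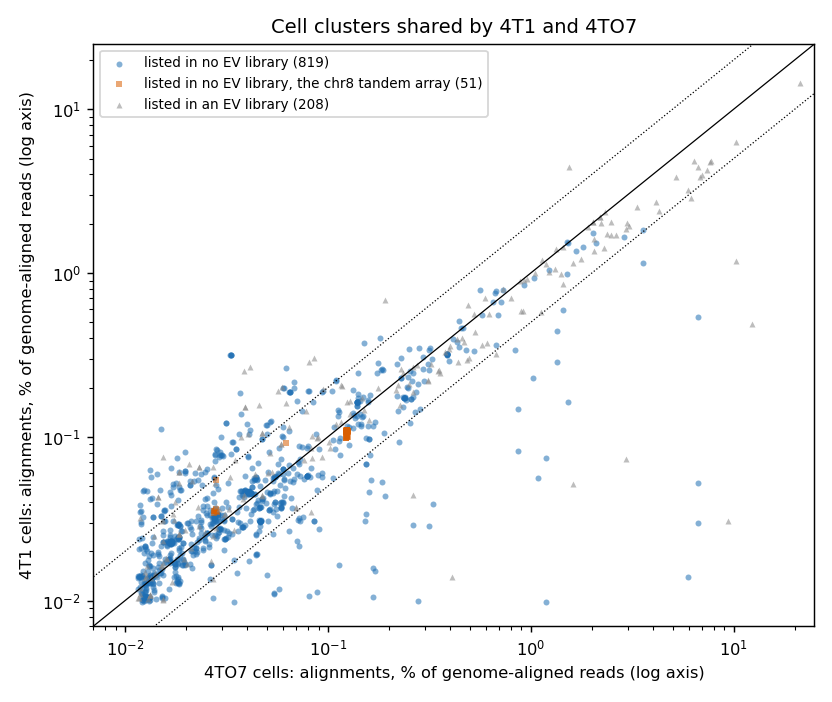
Alignments as a percentage of genome-aligned reads in 4T1 cells (vertical log axis) and 4TO7 cells (horizontal log axis) for the shared clusters: blue circles and orange squares (the 5S array) are the 870 regions, grey triangles the 208 that an EV library also listed. The solid line marks equal shares and the dotted lines a 2-fold difference, within which 704 of the 870 regions lie.

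**Figure D4:**
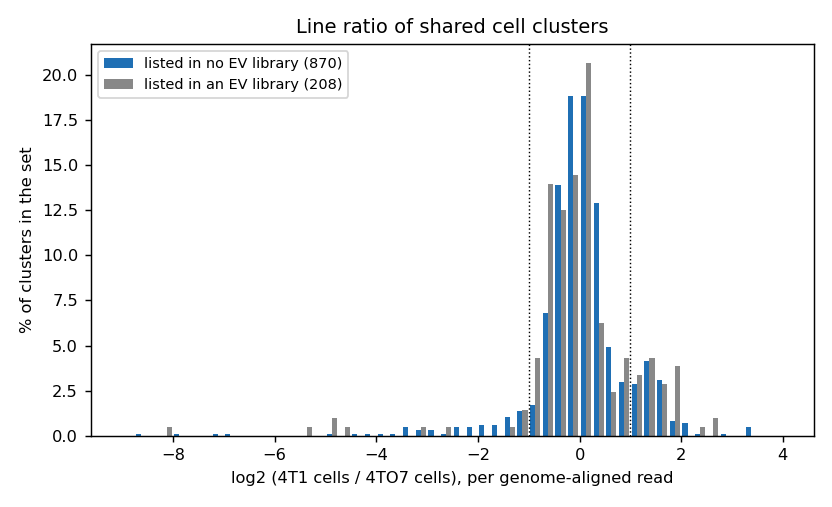
Distribution of the log2 ratio of 4T1 cells over 4TO7 cells in steps of 0.25, as a percentage of the 870 regions listed in no EV library (blue) and of the 208 shared clusters listed in one (grey); dotted lines mark 2-fold. The medians are 0.03 and -0.01, and the left tail reaches -8.73 where a 4T1 piece overlaps a longer 4TO7 cluster.

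The listing minimum bounds the ratio. Among the 219 regions with the lowest totals in 4T1 cells, up to 3068 alignments, 0 were called higher and 21 lower, and a call as higher was out of reach there because the 4TO7 total had to pass the minimum too. Among the 218 with the highest totals, 33 were called higher and 10 lower. The 99 regions called higher had a median of 10107 alignments in 4T1 cells against 2790 in 4TO7 cells. The 59 called lower had a median of 4142 in 4T1 cells against 17932 in 4TO7 cells. An EV cluster lay within 1000 nt of 8 of the 99 (8.08%) and of 16 of the 59 (27.1%). Among the 712 regions not called it was 65 (9.13%). The 16 include pieces of loci that the lines split differently, given below.

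The 4 highest ratios belonged to 4 regions with nearly equal totals on 4 chromosomes, each 25 nt wide and wholly on the plus strand. The region chr4:147526060-147526085 had 42850 alignments in 4T1 cells against 3734 in 4TO7 cells, a ratio of 9.58 (95% interval 9.26 to 9.91). The regions chr9:62292981-62293006, chr5:23725285-23725310 and chr14:55154300-55154325 had 42869, 42881 and 42929 alignments in 4T1 cells, against 3739, 3746 and 3760 in 4TO7 cells. With up to 6 positions reported per read, these 4 values may rest on the same reads and stand for 1 measurement. Their share in 4T1 cells was within 1% of each other, and so was that in 4TO7 cells.

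The next ratio was that of chr4:86394841-86394866 on the minus strand, with 15011 alignments in 4T1 cells against 1697 in 4TO7 cells, a ratio of 7.38 (7.02 to 7.77). The region chr8:3754398-3754448, also on the minus strand, had 25033 in 4T1 cells against 4181 in 4TO7 cells, a log2 ratio of 2.32 (the ratio's interval runs over 4.84 to 5.17). The remaining 4 of the 10 highest had ratios between 4.13 and 4.74. They were chr4:46214843-46214868 with 8505 alignments in 4T1 cells against 1499 in 4TO7 cells, and chr3:136950458-136950483 with 7690 in 4T1 cells against 1517 in 4TO7 cells. At chr10:117643791-117643816 the 4T1 cells had 35578 and the 4TO7 cells 7031, and at chr10:88877198-88877223 the 4T1 cells had 10107 and the 4TO7 cells 2041. In these 10 regions the lines overlapped 1 cluster to 1 cluster.

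At the low end, the ratio mostly compared pieces of unequal length. In 9 of the 10 lowest ratios the 4T1 piece was shorter than the 4TO7 clusters it overlapped and lay in a locus where overlapping clusters of the lines were split differently. The lowest, chr12:100883617-100883642, had 1890 alignments in 4T1 cells against 670247 in 4TO7 cells, a log2 ratio of -8.73 at an overlap of 2 nt. When all clusters of the locus were merged, 4T1 cells had 433058 alignments and 4TO7 cells 670247, a log2 ratio of -0.89. At chr9 the pieces 123370918 to 123370943, 123370916 to 123370941 and 123370919 to 123371094 had log2 ratios of -7.81, -7.00 and -3.63, and their merged locus -0.40. On chromosome 17, 71313104 to 71313129 and 71313100 to 71313125 had -6.93 and -4.00, and their merged locus 0.03. The other 3 were chr13:107912068-107912093, chr5:147072597-147072622 and chr1:133470391-133470416, with -4.80, -3.97 and -3.48 alone and 0.11, -0.22 and -0.29 merged. The merged loci on chromosomes 12, 9 and 17 also overlapped EV clusters.

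The exception was chr13:25084121-25084146, which overlapped 1 cluster of 4TO7 cells with nearly the same borders. It had 7548 alignments in 4T1 cells against 123095 in 4TO7 cells, all on the plus strand, a ratio of 0.0512 (0.0500 to 0.0524). It was the lowest ratio of the 849 merged loci free of EV clusters and of all regions where 1 cluster in each line overlapped. After it, with identical borders in both lines, chr3:96125932-96125957 had 3912 alignments in 4T1 cells against 29768 in 4TO7 cells, a ratio of 0.110 (0.106 to 0.113). The region chr3:65381020-65381045 had 5252 in 4T1 cells against 37387 in 4TO7 cells, a ratio of 0.117 (0.114 to 0.121). These 2 regions on chromosome 3 were picked after their values were seen. Among the 830 regions with 1 cluster in each line, 99 were called higher and 37 lower, against 99 and 59 over all 870.

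Of the 10 largest regions in 4T1 cells, 9 were not called in either direction. The largest, chr7:117203259-117203309, had 245791 alignments in 4T1 cells, and its neighbour chr7:117203217-117203267, which it overlaps, had 156306. In 4TO7 cells the pair of clusters at this place had 401103 alignments in sum, and the merged locus had 402097 in 4T1 cells, a ratio of 0.837 (0.833 to 0.841). The neighbour counted alone was called lower, at a log2 ratio of -1.62, and this call ended per covered nucleotide, at -0.62. Another piece close by, chr7:117203341-117203391, had 140758 in 4T1 cells against 137990 in 4TO7 cells.

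Of the others, chr11:108872960-108873035 had 238404 alignments in 4T1 cells against 228194 in 4TO7 cells, a ratio of 0.872. The region chr8:3754641-3754741 had 223054 in 4T1 cells against 323373 in 4TO7 cells, a ratio of 0.576. The region chr16:33002064-33002114 had 207659 in 4T1 cells against 170983 in 4TO7 cells, a log2 ratio of 0.02. It was 50 nt wide in 4T1 cells against 25 nt in 4TO7 cells, and per covered nucleotide its log2 ratio was -0.98. All 3 stayed within 2-fold. At chr3:5860361-5860586 the 4T1 cells had 205622 and the 4TO7 cells 235146, and at chr10:82417876-82418126 the 4T1 cells had 183991 and the 4TO7 cells 188680. The neighbours chr11:17121286-17121411 and chr11:17121416-17121466 had 205304 and 195664 alignments in 4T1 cells and 171164 and 203680 in 4TO7 cells. The first of them was much wider in 4T1 cells than in 4TO7 cells, and per covered nucleotide its log2 ratio was -1.32 in place of 0.00.

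At the small end of the tables, chr17:71313104-71313129, chrM:415-440 and chr8:108425783-108425808 had the lowest totals in 4T1 cells, at 1319, 1326 and 1330 alignments. Their 4TO7 totals were 134450, 3908 and 1370. The lowest in 4TO7 cells were chr14:50682076-50682101, chr5:75471910-75471935 and chr14:33384732-33384757, with 1871, 1589 and 1902 alignments in 4T1 cells and 1304, 1304 and 1315 in 4TO7 cells. None of these last 3 was called.

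Pieces of 1 locus did not always move together. At 6 of the 43 loci with several regions, 1 region was called higher in 4T1 cells while another lay below a log2 ratio of 0. On the minus strand of chromosome 8, the piece 3754398 to 3754448 had the log2 ratio of 2.32 given above. The piece 3754541 to 3754616 had 31215 alignments in 4T1 cells against 28128 in 4TO7 cells with a ratio of 0.926, and the piece 3754641 to 3754741 had 0.576. So within 343 nt the smallest of these pieces was called higher in 4T1 cells while the largest had a lower share there. On the minus strand of chromosome 16, the piece 57391392 to 57391467 had 6373 in 4T1 cells against 1393 in 4TO7 cells, a ratio of 3.82 (3.60 to 4.05). The next piece, 57391494 to 57391519, had 4142 in 4T1 cells against 17204 in 4TO7 cells, a ratio of 0.201 (0.194 to 0.208). It was called lower, and it overlapped 2 clusters of 4TO7 cells.

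On the plus strand of chromosome 9, the piece 113665771 to 113665796 had 6416 alignments in 4T1 cells against 1680 in 4TO7 cells, a ratio of 3.19 (3.02 to 3.37). The piece 113665478 to 113665528 of the same locus had 7939 in 4T1 cells against 10076 in 4TO7 cells, a ratio of 0.658. On chromosome 14, also plus strand, the piece 20110723 to 20110773 had 14808 in 4T1 cells against 4638 in 4TO7 cells, a ratio of 2.67, and the piece 20110905 to 20110955 had 4977 in 4T1 cells against 7515 in 4TO7 cells, a ratio of 0.553. Which RNA these pieces come from is not given in the sources used here, and the authors' labels are empty there. These loci were picked by the pattern itself, so they are a description.

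Some regions lay beside labelled clusters, which gives their position and does not name their RNA. Small nuclear RNA U2 is a part of the spliceosome and takes part in recognising the branch point of introns. The regions chr8:53422270-53422320, chrX:13892528-13892578 and chr11:101507055-101507105, all on the minus strand, had 4542, 4541 and 4537 alignments in 4T1 cells and 3246, 3248 and 3243 in 4TO7 cells. Each lay 16 nt from a 4T1 EV cluster with the authors' label U2 snRNA, whose alignments came to 33.8% of the aligned reads of that library. Their own share was 0.0336% in 4T1 cells against 0.0288% in 4TO7 cells, and by the rule no EV cluster overlapped them.

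Another 8 regions of 25 nt on the plus strand, 5 on chromosome 11 and 3 on chromosome 1, lay 39 nt from EV clusters labelled U2 snRNA or snRNA. They had 1349 to 1425 alignments in 4T1 cells against 1443 to 1497 in 4TO7 cells. By strand, these 8 lay on the 5' side of the EV cluster, while the 3 on the minus strand lay on its 3' side. Within the 3 and within the 8 regions the reads may be shared.

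Ribosomal labels, a gene label and a retroviral repeat label were next to other regions. On chromosome 9 the 3 pieces named above lay 14 to 167 nt from a 4T1 cell cluster labelled LSU-rRNA_Hsa, a repeat class for the large-subunit ribosomal RNA. On chromosome 6 the regions 3151619 to 3151694 and 3151601 to 3151626 lay 43 and 25 nt from a cluster labelled SSU-rRNA_Hsa. They had 59567 and 38804 alignments in 4T1 cells, and both overlapped the same pair of 4TO7 cell clusters, with 151249 alignments in sum, so their ratios are not separate. Merged, this locus had 98371 alignments in 4T1 cells against 151249 in 4TO7 cells, a log2 ratio of -0.88. The region chr17:39983896-39984046, 105 nt from the widest labelled cluster (Erf1), had 79862 in 4T1 cells against 163438 in 4TO7 cells, a log2 ratio of -1.29. Its 4TO7 cluster was 425 nt wide and also overlapped another 4T1 cell cluster. Merged with it, the locus had 195108 alignments in 4T1 cells against 163438 in 4TO7 cells, a log2 ratio of -0.01. This merged locus also overlapped 4 EV clusters. The region chr10:82417876-82418126 named above lay 25 nt from a cluster labelled ERVL, a class of endogenous retroviral repeats.

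Near-equal totals at distant places were frequent. Outside the 5S array, 216 regions had at least 10000 alignments in 4T1 cells. Of these, 59 fell into 20 groups whose members were each within 1% of at least 1 other member in both lines, and 16 groups spanned at least 2 chromosomes. The largest group had 8 members on X, each 50 nt wide on the plus strand, with 42946 to 43180 alignments in 4T1 cells and 43507 to 43691 in 4TO7 cells. A group of 7 members on 6 chromosomes had 21883 to 22056 in 4T1 cells and 15666 to 15846 in 4TO7 cells, and was not called. Of the 59 regions, 23 were called higher in 4T1 cells and 0 lower, against 50 (23.1%) and 14 (6.48%) of all 216, and some of the 99 calls may rest on the same reads.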

How the data were processed

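Small RNA of 4T1 cells, 4TO7 cells and the EVs of each line was sequenced, with 1 library per group. Per the submitters' processing notes, reads went through cutadapt, Bowtie and bedtools on mm9, with no versions given. The authors' deposited cluster tables hold raw counts of alignments per region and strand, unnormalized. Their logs, also deposited by the authors, give reads processed, reads aligned and alignments reported, and state 1 mismatch and up to 6 positions per read. The deposited miRNA tables hold counts per mature miRNA, of which sense alignments of 18 nt or more were used. The deposited tables of read lengths gave the share of short reads.

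Regions were selected by overlap of at least 1 nt. Starts and ends are printed as the tables list them. The tables do not state whether they count from 0 or 1, and width is end minus start. Ratios are 4T1 cells over 4TO7 cells per genome-aligned read, with exact conditional binomial (Clopper-Pearson) 95% intervals, and a call needs the interval past 2-fold. Reads carried no molecular identifiers and can be PCR copies, so intervals cover counting error only. With 1 library per group no p-value is given and calls compare libraries.

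The regions, the marker lists and the rules were chosen with earlier results of these data known. The text names the 10 largest regions in 4T1 cells, the 10 highest and the 10 lowest ratios among calls, and the 3 nearest the lowest listed total in each cell library. Others are said to be picked later. A planned count of miRNA reads for regions labelled with a miRNA was not made, since none carried a label. Genes of the 5S array were matched by spacing to GENCODE M21 (GRCm38). Their sequences are not reported here, and genome sequence of mm9 was not used here. Computation used pandas 2.3.3, numpy 2.4.6, scipy 1.17.1 and matplotlib 3.10.9. Alternatives were other denominators, overlap rules, call limits and merged loci.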

Additional observations from a re-analysis of the deposited data

How the results depend on the processing

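No paired analysis was possible because each group has 1 library. The number of regions stayed between 811 and 904 under 5 alternatives: overlap of at least 50% of the 4T1 cluster, no EV cluster within 100 nt, overlap on the same strand, merged loci, and (added after seeing the data) touching clusters counted as overlapping. Asking for 2 times the lowest listed total in both cell libraries left 554 regions, of which 52 were called higher and 41 lower, at a median of -0.087 (log2). With 1 cluster in each line 37 regions were called lower, and after merging loci 38. Past 1.5-fold 148 were called higher and 91 lower, and past 4-fold 9 were called higher and 28 lower. The sum of listed totals as denominator moved the median to 0.17. Sense miRNA alignments as denominator moved every log2 ratio by -1.50 and the median to -1.48, with 5 called higher and 659 lower, since miRNA reads were a larger share of 4T1 cells than of 4TO7 cells. Among the calls, 62.7% were higher as reported, 72.8% with 1 cluster in each line and 72.3% after merging. Of the 35 named regions, all kept their call with the sum of totals and 33 did per covered nucleotide, where chr7:117203217-117203267 lost its call and chr11:17121286-17121411 gained one as lower. The alternatives of merged loci for the calls, the median at 2 times the lowest total, reported alignments and leaving out the 5S array were chosen after seeing the data; reported alignments and leaving out the array left the counts and the median within the limits used here. Planned miRNA reads of at least 21 nt for labelled regions were not run, as no region had a label. Depth limits the small regions most, since a cluster below about 1300 alignments is in no table.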

Other observations

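The mitochondrial genome held 6 of the 870 regions, all on the plus strand and none with a mitochondrial cluster in an EV table. The highest, at 11611 to 11661, had 15276 alignments in 4T1 cells and 15003 in 4TO7 cells. Those at 583 to 658, 1092 to 1142, 1725 to 1775 and 1807 to 1832 had 5049, 4512, 6279 and 1412 alignments in 4T1 cells and 4137, 3458, 6316 and 1719 in 4TO7 cells. The region at 415 to 440 was called lower, with 1326 in 4T1 cells against 3908 in 4TO7 cells, a ratio of 0.283 (0.266 to 0.302), and the other 5 were not called.

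In 8 regions more than 1% of the alignments in 4T1 cells lay on the minor strand. The region chr9:90434059-90434084 had 6139 alignments on the plus and 9278 on the minus strand in 4T1 cells, and 4527 and 2259 in 4TO7 cells. The region chr12:72972239-72972264 had the same minus-strand counts, 9278 in 4T1 cells against 2259 in 4TO7 cells, with 1403 and 1484 on the plus strand. The region chrX:91005461-91005486 had 4394 on the plus and 3709 on the minus strand in 4T1 cells, and 4764 and 2383 in 4TO7 cells. At chr4:46214843-46214868, which is among the 10 highest ratios, 5648 alignments were on the plus and 2857 on the minus strand in 4T1 cells, whereas all 1499 in 4TO7 cells were on the plus strand. Its plus-strand alignments alone are thus fewer than the total behind its ratio of 4.74. Some regions of 1 main strand in 4T1 cells had both in 4TO7 cells. The region chr8:114535773-114535798 (ratio 0.407, called lower) had 46011 minus-strand alignments in 4T1 cells, against 40244 minus and 54185 plus in 4TO7 cells. At chr1:173211139-173211164 (0.223, called lower), 4T1 cells had 30735 on the minus strand, against 38831 minus and 76251 plus in 4TO7 cells. Both were picked after their values were seen.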
